A study of Rattus norvegicus with 18 samples.

Results

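The heat shock proteins and their DnaJ co-chaperones were followed through 3 rat muscles in experimental autoimmune myasthenia gravis (EAMG). The set holds every gene whose symbol starts with Hspa, Hspb, Hspd, Hspe, Hsph, Hsp90, Dnaja, Dnajb or Dnajc, together with the heat shock factors Hsf1 and Hsf2, provided that a probe set of the array was assigned to that gene alone. These were 66 genes, read by 103 probe sets, of the 14217 genes named on the array. Each gene was represented by its probe set with the highest mean log2 signal, and the test was run on the 52 of 66 whose signal was 400 or more on 1 or more of the 18 arrays. The other 14 genes stayed below that minimum, with highest signals from 60.7 for Dnajb7 to 313 for Dnajc24. They were Dnajb3, Dnajb7, Dnajb13, Dnajb14, Dnajc11, Dnajc17, Dnajc22, Dnajc24, Hspa1l, Hspa2, Hspa4l, Hspa12b, Hspb9 and Hspbap1. A further 6 probe sets listed several symbols and were left out, so the constitutive Hsp70 gene Hspa8 and the stress-inducible Hsp90 gene Hsp90aa1 were not analysed here. Hspbp1 and Hspbap1 carry the same first letters as the small heat shock proteins but are binding partners of other heat shock proteins, and were kept as a class of their own.

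The EAMG rats were female Lewis rats, 6 to 8 weeks old, immunized with acetylcholine receptor of the electric ray Torpedo at 40 µg each in Freund's complete adjuvant enriched with 0.5 mg of mycobacterium, and the control rats received that adjuvant mixture with no receptor, so both groups carried the adjuvant. The diaphragm (DIA), the extraocular muscles (EOM) and a leg muscle, the extensor digitorum longus (EDL), were taken 6 weeks later, which gave 6 groups of 3 arrays: DIA EAMG and DIA control, EDL EAMG and EDL control, EOM EAMG and EOM control. Every array was hybridized with a pool of RNA of several rats. The pools are given as 3 rats in the labels and as 4 or up to 5 in the methods. The errors and p-values below therefore describe spread between pools of a group and not between single rats. In the main fit that spread was estimated over all 6 groups together, so the error of a comparison also depends on arrays outside it.

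Heat shock proteins are molecular chaperones that hold, refold or hand over unfolded proteins. Proteins of the Hsp70 family (Hspa genes) bind exposed stretches of a client through a cycle of ATP hydrolysis that J-domain proteins (Dnaja, Dnajb and Dnajc) start and nucleotide exchange factors such as Hsph1 reset, while Hsp90 acts on more mature clients and the mitochondrial chaperonin of Hspd1 and Hspe1 folds proteins inside the organelle. Small heat shock proteins (Hspb genes) keep clients from aggregating, and skeletal muscle is known for high levels of several of them at the Z-disc. Hsf1 is the main transcription factor that induces these genes under protein stress, by way of heat shock elements in their promoters.

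Promoter windows are shown for 4 of the genes that were lower in EAMG muscle over the 3 muscles, because these were the members whose windows held a complete heat shock element. The sequences are from RefSeq (rat genome build GRCr8), each 300 bases long, written 5′ to 3′ on the gene's strand and covering 250 bases before the annotated start and 50 from it. The element is built of alternating GAA and TTC units with 2 bases between them, and capitals mark every stretch of at least 2 units (GAANNTTC or TTCNNGAA), each of which reads the same on both strands.
Hsph1, chr12:10427118-10427417, plus strand: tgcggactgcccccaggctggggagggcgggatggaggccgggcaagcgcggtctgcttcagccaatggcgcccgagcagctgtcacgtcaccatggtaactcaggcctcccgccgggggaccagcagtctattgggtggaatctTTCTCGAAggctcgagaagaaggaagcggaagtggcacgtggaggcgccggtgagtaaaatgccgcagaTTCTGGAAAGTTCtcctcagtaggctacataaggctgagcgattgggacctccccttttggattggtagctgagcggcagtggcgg
Hspe1, chr9:64084077-64084376, plus strand: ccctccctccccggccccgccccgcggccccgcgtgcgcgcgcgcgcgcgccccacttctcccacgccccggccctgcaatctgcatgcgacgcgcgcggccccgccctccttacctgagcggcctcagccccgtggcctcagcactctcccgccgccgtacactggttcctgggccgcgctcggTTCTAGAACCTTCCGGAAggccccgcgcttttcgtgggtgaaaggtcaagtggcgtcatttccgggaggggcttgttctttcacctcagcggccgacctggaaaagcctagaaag
Hspd1, chr9:64083988-64084287, minus strand: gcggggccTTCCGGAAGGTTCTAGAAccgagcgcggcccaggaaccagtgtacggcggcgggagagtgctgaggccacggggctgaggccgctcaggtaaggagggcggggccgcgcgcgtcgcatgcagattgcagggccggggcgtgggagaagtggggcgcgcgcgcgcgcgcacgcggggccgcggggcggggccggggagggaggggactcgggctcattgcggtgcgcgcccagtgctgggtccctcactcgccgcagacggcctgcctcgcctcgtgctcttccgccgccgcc
Dnaja1, chr5:60638154-60638453, plus strand: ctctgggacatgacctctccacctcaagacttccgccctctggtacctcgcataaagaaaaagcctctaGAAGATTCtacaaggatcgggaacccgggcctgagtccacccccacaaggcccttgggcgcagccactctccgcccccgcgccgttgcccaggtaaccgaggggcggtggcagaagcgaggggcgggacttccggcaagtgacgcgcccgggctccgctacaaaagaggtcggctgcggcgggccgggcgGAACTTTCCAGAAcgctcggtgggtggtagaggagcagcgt

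A window was found for 54 of the 66 members. The 3-unit element (GAANNTTCNNGAA or TTCNNGAANNTTC, both of which contain the 2-unit motifs) occurred in 4 of the 54 windows, those of Hsph1, Hspe1, Hspd1 and Dnaja1, against 0.798% of all 33469 promoter windows in the table. Hspd1 and Hspe1 lie head to head on opposite strands and their windows share 211 bases, so the element of 18 bases in both is the same stretch. It begins 65 bases before the start of Hspe1 and 242 before that of Hspd1. In Hsph1 the element begins 36 bases before the start, and in Dnaja1 it begins 9 bases past it. Any 2-unit motif was present in 14 of the 54 member windows and in 15.9% of all windows. Hspb1 held it 129 and 109 bases before its start, whereas the windows of Hspa1a and Hspb7 held none. A match describes letters in a window and not a bound site, and these windows are those of the annotated starts.

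On 2 arrays the spiked poly-A control transcripts were low, with mean signals of 800 on array 2 of DIA EAMG and 564 on array 2 of EOM EAMG, against 11110 to 26835 on the other 16, and calls of the members and of the list genes in EAMG against control are given with and without this low poly-A pair. Array 3 of DIA EAMG had a GAPDH 3′ to 5′ ratio of 2.66, against 1.06 to 1.33 on the others. Median signals were 129 to 163, and the arrays of a group correlated at 0.943 to 0.983 over all probe sets tested. Genes that define skeletal muscle (7 of 7 tested) were measured in every group and none of the 7 passed the test in any muscle. Of 9 fast fibre genes tested, none lay above control in DIA or EDL and 2 did in EOM. Pvalb was called lower in DIA (-1.21), and Pvalb (-0.58) and Myh1 (-0.37) in the mean EAMG change of the 3 muscles. These calls held without the low poly-A pair. All 3 red blood cell genes tested were lower in DIA and EOM of EAMG rats and 1 of the 3 (Hba-a3) in EDL, where 1 of 7 endothelial genes (Emcn) was also lower. Of 7 fibroblast genes, 2 were lower in DIA, neither of them without the low poly-A pair, and 4 in EDL. Of 3 genes of the orbital lipid gland tested, all were above 0 in EOM, with a median change of 0.98, and Thrsp was called (3.15). All 10 macrophage genes tested lay above control in DIA with none passing. Their part in the results for the chaperones was not tested, and in whole muscle fewer cells of a type and less RNA per cell cannot be told apart.

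Taking the mean EAMG change of the 3 muscles, 8 members fell and 6 rose. The members that fell were the inducible Hsp70 gene Hspa1a, its exchange factor Hsph1, both subunits of the mitochondrial chaperonin (Hspd1 and Hspe1) and the J-domain genes Dnaja1, Dnajb6, Dnajc1 and Dnajc15, by 0.22 to 0.64 on the log2 scale. Those that rose were Hsf1, the muscle small heat shock gene Hspb7 and the J-domain genes Dnajb12, Dnajc3, Dnajc9 and Dnajc30, by 0.22 to 0.43. The 14 members called were 26.9% of the 52, beside 20.4% of all 12238 probe sets tested that passed in this comparison (10.5% higher and 9.93% lower). The count was 8 without the low poly-A pair, beside 1636 of the 12238, and 6 without a signal minimum, beside 1267 of 31042. The median change was 0.02 over the 52 members and 0.01 over all probe sets tested. Differences and their standard errors (SE) are EAMG minus control on the log2 scale, from limma with Benjamini-Hochberg adjustment over all probe sets tested. A change is called at an adjusted p under 0.05. The fit treated all arrays as independent. The methods describe the 3 muscles as dissected from rats pooled in replicate groups, so the same rats may have given all 3. If so, the muscles in the mean are not independent, and its adjusted p-values may be too small.

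By muscle, 4 members were called in DIA, 2 higher and 2 lower, or 7.69% of the 52, beside 2.68% of all probe sets tested (1.53% higher and 1.15% lower). In EDL 7 were called, 4 higher and 3 lower, or 13.5%, beside 6.59% (3.37% higher and 3.22% lower). In EOM 1 was called, lower, or 1.92%, beside 1.50% (0.964% higher and 0.531% lower). Without the low poly-A pair there were 0 in DIA, beside 51 of the 12238 probe sets in place of 328, 7 in EDL, beside 915 in place of 806, and 1 in EOM, beside 126 in place of 183, the last being Dnaja4 in place of Hsph1. In DIA 7 members had all EAMG arrays above control and 9 all below, beside 13.3% and 11.1% of all probe sets. EDL had 13 above and 5 below, beside 12.6% and 12.4%, and EOM had 4 above and 11 below, beside 12.5% and 11.9%. The sign of the change was shared by all 3 muscles for 10 members above 0, Hsf1 and Hsf2 included, and for 12 below 0, with Hspd1, Hspe1, Hsph1, Hspa4, Dnaja1 and Dnajb6 among them. Another probe set of Hsf2 read -0.65 in DIA and -0.39 in EOM, neither called. The share of all probe sets with 1 sign in the 3 muscles was not counted, so these counts are not read as a result about the members. The mean over the 3 muscles is built from the same arrays as each muscle's own change, so both are set side by side below.

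**Figure D1:**
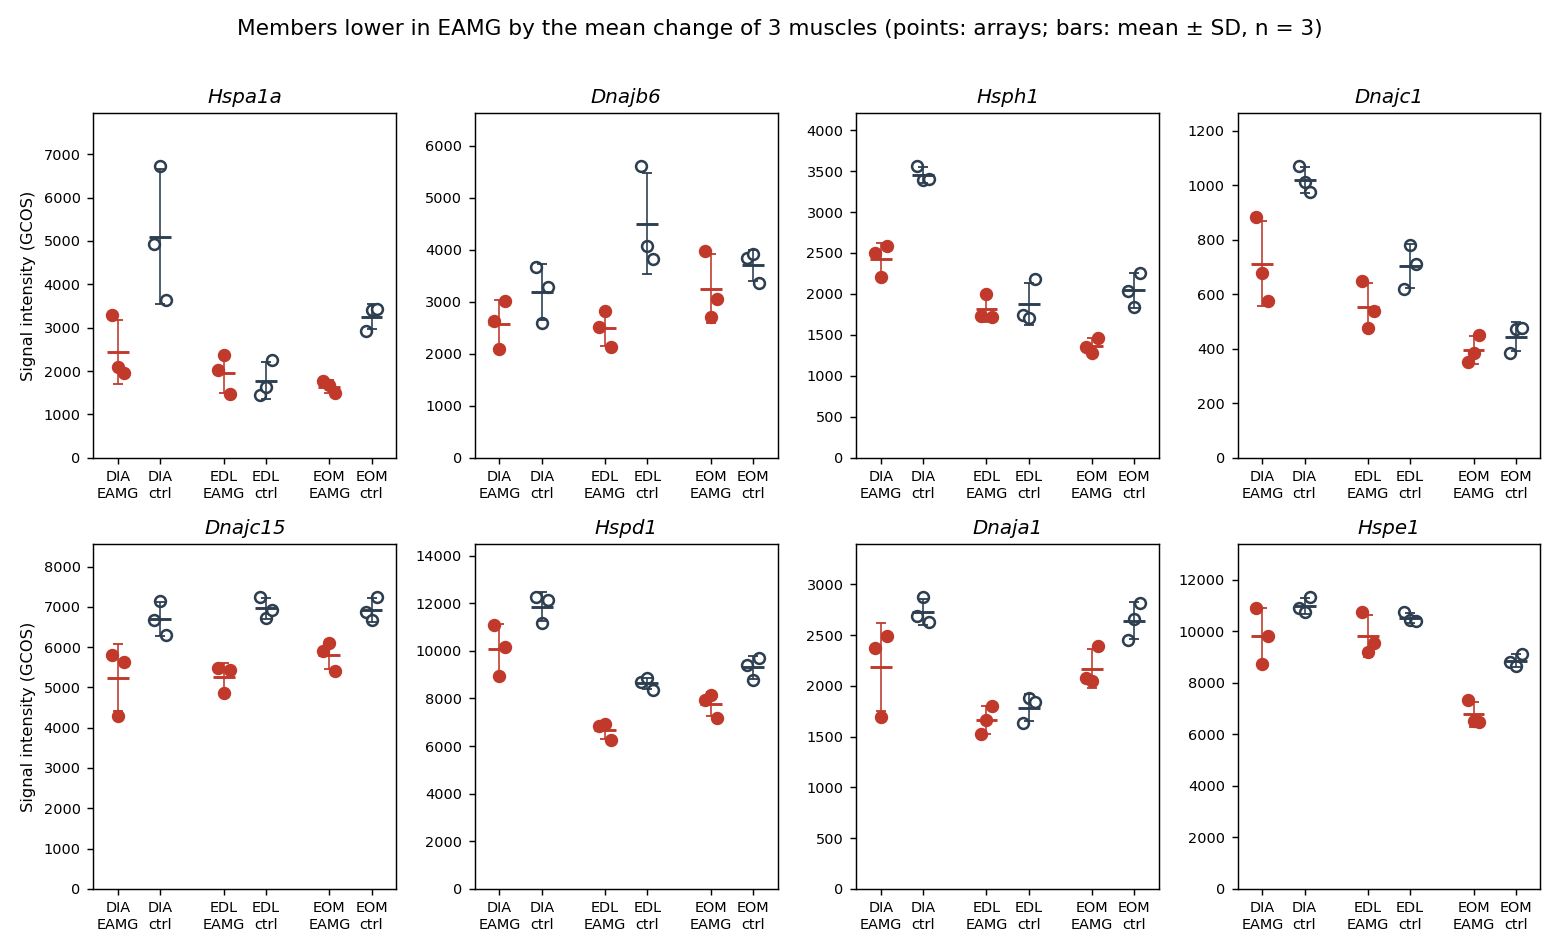
Signal intensity of the 8 members that fell in EAMG over the 3 muscles, with each gene on its own linear axis from 0 and EAMG (filled) left of control (open) in DIA, EDL and EOM. Points are arrays and bars are the mean ± SD of 3 arrays; Hspa1a lies below control on all arrays of DIA and EOM while its EDL groups overlap.

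Hspa1a encodes the stress-inducible cytosolic Hsp70. Its probe set may also read the nearly identical Hspa1b, whose own probe set lists both symbols and was left out. In DIA its signal was 3299, 2089 and 1947 in EAMG, against 4926, 6729 and 3636 in control. In EOM it was 1765, 1678 and 1486 in EAMG, against 2926, 3412 and 3428 in control. All 3 EAMG arrays lay below all 3 control arrays in both muscles. In EDL the groups overlapped, with 2026, 2372 and 1467 in EAMG and 1449.8, 1638 and 2255 in control. The change was -1.06 (SE 0.25, adjusted p = 0.0364) in DIA, which is 0.481 times the control level, and 0.13 (SE 0.25, adjusted p = 0.793) in EDL. In EOM the change of -0.99 (SE 0.25) was nearly as large as in DIA and did not pass (adjusted p = 0.0652). Over the 3 muscles the gene fell by 0.64 (adjusted p = 0.00678), and by 0.61 without the low poly-A pair (adjusted p = 0.0273). The call in DIA was lost without that pair (-0.96, adjusted p = 0.191) and in 6 of the 18 fits that each left out 1 array, where the adjusted p was 0.052 to 0.178. They were the fits without DIA EAMG 2 or 3, DIA control 1 or 2, or EOM control 2 or 3.

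Hsph1, a member of the Hsp110 family that frees ADP from Hsp70, fell in both DIA and EOM. DIA EAMG arrays read 2499, 2212 and 2579.9, against 3562, 3389 and 3399 in DIA control. EOM EAMG arrays read 1358, 1279.9 and 1465, against 2037, 1838 and 2258 in EOM control. The groups were apart in both muscles, and in EDL they overlapped at 1716 to 2003 in EAMG and 1709.8 to 2179 in control. The gene fell by 0.51 in DIA (SE 0.12, adjusted p = 0.0364) and by 0.58 in EOM (SE 0.12, adjusted p = 0.0233), whereas the change in EDL was -0.04 (adjusted p = 0.872). No other member was called in EOM. Without the low poly-A pair its change was -0.44 in DIA (adjusted p = 0.183) and -0.53 in EOM (adjusted p = 0.0896). Leaving out DIA EAMG 2 or 3, any DIA control or EOM control 1 ended its call in DIA (adjusted p of 0.0527 to 0.183), and leaving out EOM EAMG 1 or 2 or any EOM control ended that in EOM (adjusted p of 0.0512 to 0.135). The mean over the 3 muscles was -0.38 (adjusted p = 0.00202) and -0.34 without the pair (adjusted p = 0.0108). A second probe set of Hsph1 with lower signal was not called and did not show the fall in EOM, with changes of -0.41 in DIA (adjusted p = 0.384), 0.38 in EDL (adjusted p = 0.376), -0.03 in EOM (adjusted p = 0.977) and -0.02 in the mean (adjusted p = 0.945).

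The mitochondrial chaperonin is a ring of Hsp60 (Hspd1) closed by a lid of Hsp10 (Hspe1), and the promoters of its subunits are the ones that share a heat shock element above. Hspd1 read 6848, 6937 and 6241 in EDL EAMG, against 8676, 8853 and 8375 in EDL control. In DIA it read 11101, 8941 and 10156 in EAMG, against 12267, 11158 and 12132 in control, and in EOM 7937, 8148 and 7193 in EAMG, against 9418, 8783 and 9706 in control. The EAMG arrays were below all control arrays in each of the 3 muscles. The change passed in EDL (-0.37, SE 0.10, adjusted p = 0.0402) and not in DIA (-0.24, adjusted p = 0.197) or EOM (-0.26, adjusted p = 0.253), and the mean was -0.29 (adjusted p = 0.00324). Its EDL call was lost in 9 of the 18 fits without 1 array, those without EDL EAMG 2 or 3, any EDL or EOM control or DIA control 3, at adjusted p of 0.0518 to 0.145. Hspe1 showed its gap in EOM, with 7331, 6514 and 6490.4 in EAMG, against 8815, 8655 and 9128 in control. Its change was -0.39 in EOM (adjusted p = 0.0699), -0.17 in DIA and -0.10 in EDL, none of them called, and its mean over the 3 muscles was -0.22 (adjusted p = 0.0159). Without the low poly-A pair the mean of Hspd1 was -0.28 (adjusted p = 0.00847) and that of Hspe1 was -0.18 (adjusted p = 0.0537).

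Among the J-domain genes that fell, Dnajb6 had the largest mean change (-0.45, adjusted p = 0.0113). It encodes a co-chaperone that keeps proteins from aggregating and is mutated in a limb-girdle muscular dystrophy in humans. EDL EAMG arrays read 2519, 2818 and 2126, against 5612, 4067 and 3826 in EDL control. The groups were well apart in EDL, where the gene fell by 0.84 (SE 0.19, adjusted p = 0.0213) to 0.557 times the control level, and overlapped in DIA and EOM. Its changes there were -0.31 (adjusted p = 0.395) in DIA and -0.20 (adjusted p = 0.710) in EOM. The EDL call ended without EDL EAMG 3 or EDL control 1, at adjusted p of 0.0915 and 0.0995.

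Dnajc15, a J-domain protein of the mitochondrial inner membrane, had its EAMG arrays below control in all 3 muscles. It read 5476, 4870.2 and 5434 in EDL EAMG, against 7242, 6724 and 6932 in EDL control. In DIA it read 5795, 4284 and 5636 in EAMG, against 6665, 7143 and 6313 in control, and in EOM 5909, 6109 and 5412 in EAMG, against 6869.8, 6669 and 7249 in control. The EAMG and control ranges did not overlap in any muscle, and the changes were of like size, -0.41 in EDL (SE 0.12, adjusted p = 0.0480), -0.37 in DIA (adjusted p = 0.0975) and -0.26 in EOM (adjusted p = 0.358). The EDL call sat near the threshold and was lost in 14 of the 18 fits without 1 array (all but those without EDL EAMG 1 or a DIA EAMG array), at adjusted p of 0.0533 to 0.156, while the mean over the 3 muscles of -0.34 (adjusted p = 0.00283) passed in all 18.

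Dnajc1 spans the membrane of the endoplasmic reticulum. In DIA it read 882, 679 and 575 in EAMG, against 1071, 1011 and 977 in control, and the groups did not overlap. Its mean change was -0.35 (adjusted p = 0.0175) and no single muscle passed (-0.54 in DIA, -0.35 in EDL and -0.17 in EOM). Dnaja1, a cytosolic partner of Hsp70, read 2368, 1692 and 2492 in DIA EAMG, against 2688, 2875 and 2625 in DIA control. In EOM its EAMG arrays read 2074, 2047 and 2387, against 2453, 2659 and 2814 in control. It lay below control in DIA and EOM and overlapped in EDL (1528 to 1799.8 in EAMG, 1631 to 1877 in control). Its mean of -0.24 was the weakest call (adjusted p = 0.0407) and was lost in 12 of the 18 fits without 1 array, those without DIA EAMG 2, any DIA control, EDL EAMG 1 or 2, EDL control 2 or 3, EOM EAMG 1 or 2, or EOM control 2 or 3 (adjusted p of 0.0539 to 0.0796). A second probe set of Dnaja1 had a mean of -0.174 and was not called (adjusted p = 0.0599). Without the low poly-A pair, the means of Dnajb6 (-0.36, adjusted p = 0.0470) and Dnajc15 (-0.31, adjusted p = 0.0047) still passed, and those of Dnajc1 (-0.34, adjusted p = 0.0561) and Dnaja1 (-0.17, adjusted p = 0.0994) did not.

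**Figure D2:**
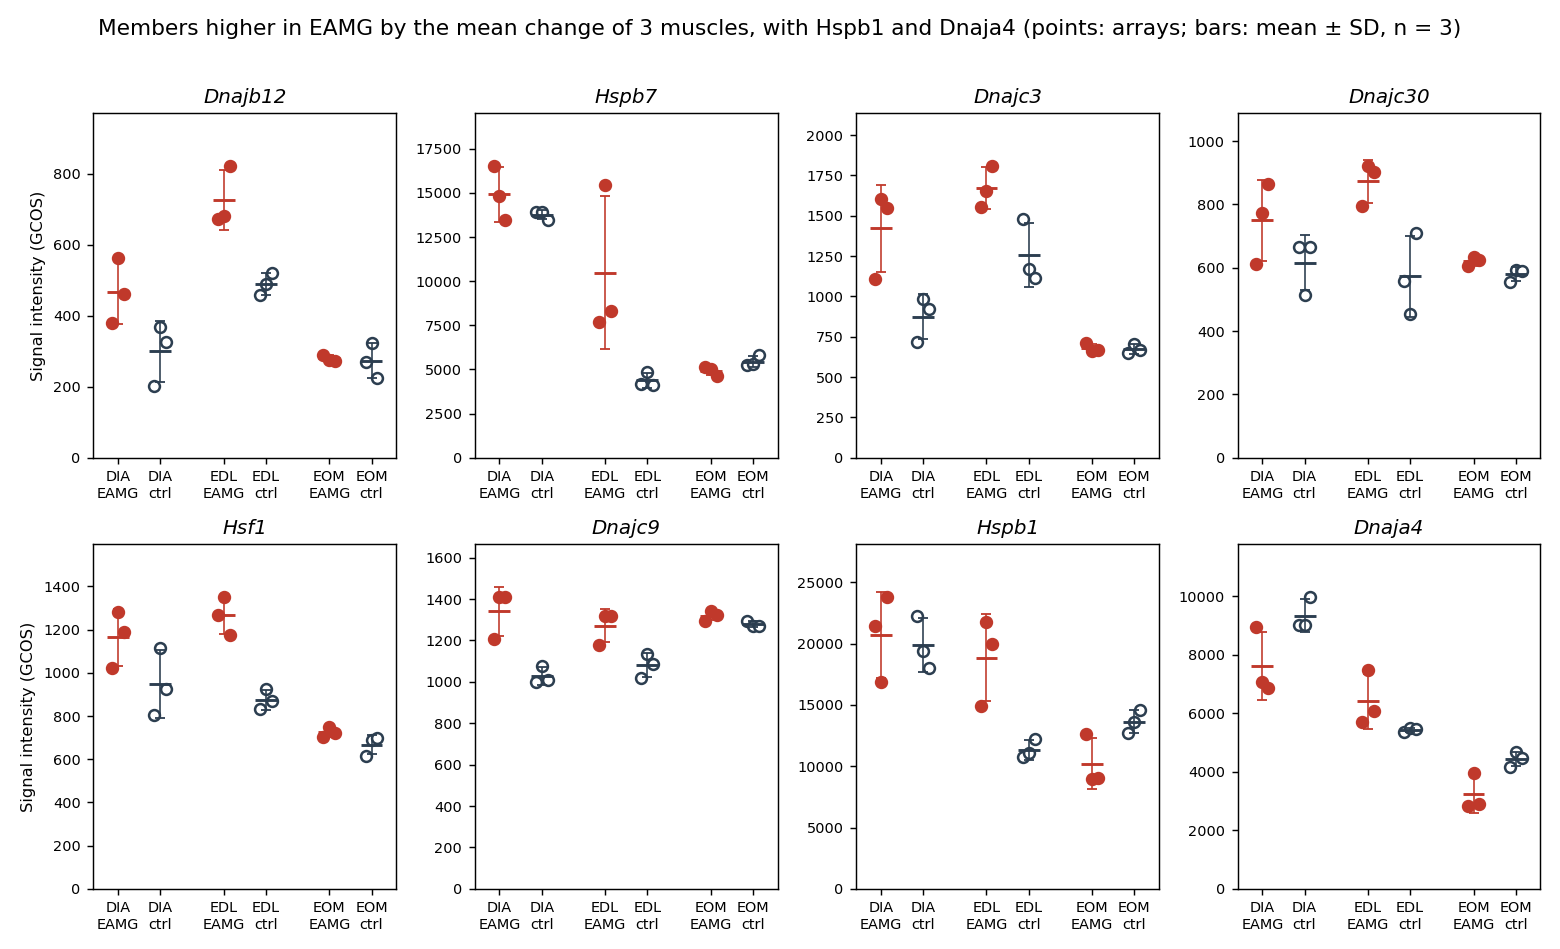
Signal intensity of the 6 members that rose in EAMG over the 3 muscles, with Hspb1 and Dnaja4, which lay on opposite sides of control in EDL and EOM; each gene has its own linear axis from 0 and EAMG (filled) stands left of control (open). Points are arrays and bars are the mean ± SD of 3 arrays; array 2 of EDL EAMG reads 15467 for Hspb7, above the other EDL EAMG arrays at 7707 and 8287.

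Hspb7, a small heat shock protein of heart and skeletal muscle, had the largest rise of any member in a single muscle. EDL EAMG arrays read 7707, 15467 and 8287, against 4175, 4879 and 4124 in EDL control. The lowest EAMG array lay above the highest control array, and array 2 stood far above its group. In EOM the order was turned, with 5136, 5005 and 4633 in EAMG, against 5229, 5325 and 5797 in control. DIA was level, with 16524, 14802 and 13439 in EAMG and 13902, 13939 and 13449.6 in control. The change was 1.19 in EDL (SE 0.19, adjusted p = 0.0038), 2.27 times the control level, 0.11 in DIA (adjusted p = 0.786) and -0.15 in EOM (adjusted p = 0.802). Array 2 was also high in slow fibre genes: 8 of the 9 tested were highest on EDL EAMG 2, and their mean log2 signal was 14.9 on that array, 13.2 and 13.3 on the other EDL EAMG arrays and 13.0 to 13.2 on the EDL controls. The mean change of all 9 was above 0 in EDL and 1 of the 9 (Csrp3) was called. Their part in the rise of Hspb7 was not tested. Without EDL EAMG 2 the rise of Hspb7 was 0.87 (adjusted p = 0.00462), and its EDL call passed in all 18 fits without 1 array. A second Hspb7 probe set read 0.82 in EDL and was not called (adjusted p = 0.243). It read -0.24 in DIA, with the other sign, -0.31 in EOM and 0.09 in the mean (adjusted p = 0.814), none of them called. For the probe set that represents Hspb7, the mean over the 3 muscles (0.38, adjusted p = 0.0253) joined the EDL rise to small changes in the other muscles. It was not called without the low poly-A pair (0.38, adjusted p = 0.0674).

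Hspb1, the small heat shock protein also known as Hsp27, which binds actin filaments, rose in EDL alongside Hspb7. EDL EAMG arrays read 14930.4, 21738 and 19952, against 10729, 11042 and 12208 in EDL control, with no overlap. In EOM the gene lay on the other side, at 12598, 8965 and 9036 in EAMG, against 12732, 13611 and 14589 in control. DIA overlapped, at 16864 to 23816 in EAMG and 18010.0 to 22262 in control. The change was 0.72 in EDL (SE 0.17, adjusted p = 0.0240), -0.44 in EOM (SE 0.17, adjusted p = 0.265) and 0.05 in DIA (adjusted p = 0.904), and the mean of 0.11 was not called (adjusted p = 0.447). Without EDL EAMG 2 the EDL rise was 0.61 and did not pass (adjusted p = 0.0983). It was also lost without EDL EAMG 3, EDL control 1 or EDL control 2, with a lowest adjusted p of 0.0747 over the 4 fits. The other small heat shock genes tested, Hspb2, Hspb3, Hspb6 and Hspb8, had changes of -0.44 to 0.16 in the 3 muscles and none was called. All 6 small heat shock genes were above 0 in EDL and all 6 below 0 in EOM, where 49.7% and 50.1% of all probe sets tested were above 0. A second probe set of Hspb8 was on the other side in EOM, at 0.09, and was not called (adjusted p = 0.945). Hspb6 (Hsp20), a partner of Hspb1 in muscle, changed by -0.33 in EOM, where it read 29281, 21637 and 19040 in EAMG, against 29441, 29032 and 28045 in control. The EOM EAMG arrays also differed in the genes that define skeletal muscle. Their mean log2 signal was 14.9, 14.5 and 14.2 on EOM EAMG 1, 2 and 3, against 14.6 to 14.7 on the EOM controls. The part of this difference in the EOM changes of the small heat shock genes was not tested.

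Dnaja4, a cytosolic J-domain protein, followed Hspa1a and Hsph1 in the size of its EOM change. It read 2825, 3970.1 and 2896 in EOM EAMG, against 4175, 4667 and 4482 in EOM control. In EDL it lay on the other side, at 5691, 7465 and 6069 in EAMG, against 5363, 5486 and 5459 in control. DIA EAMG arrays read 8961, 7052 and 6845, against 9029.9, 9013 and 9974 in DIA control. All groups were apart, below control in EOM and DIA and above it in EDL, and no change passed: -0.48 in EOM (adjusted p = 0.131), -0.30 in DIA (adjusted p = 0.259) and 0.23 in EDL (adjusted p = 0.366). The EOM change was called without the low poly-A pair (-0.63, adjusted p = 0.0491).

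Hsf1, the transcription factor of the heat shock response, was higher in the mean over the 3 muscles. Hspa1a and Hsph1, which it is known to induce, were lower in that mean. No single muscle showed this contrast in its calls, since Hsf1 was called in EDL alone, where neither Hspa1a nor Hsph1 was called. In EDL Hsf1 read 1268, 1351 and 1177 in EAMG, against 832, 923 and 870.3 in control. EOM arrays read 702, 750.2 and 724 in EAMG, against 617, 687 and 700.4 in control, and DIA arrays 1021, 1283 and 1189 in EAMG, against 805, 1115 and 925 in control. The groups were apart in EDL and, by a narrow margin, in EOM, and overlapped in DIA. The rise was 0.53 in EDL (SE 0.12, adjusted p = 0.0225), 0.30 in DIA (adjusted p = 0.187) and 0.12 in EOM (adjusted p = 0.737), with a mean of 0.32 (adjusted p = 0.0066, and 0.0285 without the low poly-A pair). The EDL call was lost without EDL EAMG 2 or 3 or EDL control 1 or 2, at adjusted p of 0.0506 to 0.0907. The related factor Hsf2 had a mean change of 0.22 and was not called (adjusted p = 0.127), and its probe sets disagreed, at 0.36 (adjusted p = 0.0292) for 1 and -0.30 (adjusted p = 0.118) for another.

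Dnajc3, an inhibitor of the PERK kinase in the lumen of the endoplasmic reticulum, rose in DIA. It read 1109, 1605 and 1549.9 in DIA EAMG, against 717, 987 and 922 in DIA control. EDL EAMG arrays read 1554, 1652 and 1809, against 1482, 1169 and 1114 in EDL control. EAMG was above control on all arrays of both muscles, and EOM was level at 663 to 711 in EAMG and 649 to 705 in control. The change was 0.69 in DIA (SE 0.16, adjusted p = 0.0293), 1.62 times the control level, 0.42 in EDL (adjusted p = 0.116) and 0.01 in EOM (adjusted p = 0.983). The DIA call was lost without DIA EAMG 2 or 3 or DIA control 1 or 3 (adjusted p of 0.068 to 0.157) and without the low poly-A pair (0.60, adjusted p = 0.177), while the mean of 0.38 (adjusted p = 0.00938) passed without the pair (0.35, adjusted p = 0.0330).

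Dnajc9, a nuclear J-domain protein that binds histones, read 1206, 1410.5 and 1408 in DIA EAMG, against 999, 1079 and 1011 in DIA control. The groups were apart in all 3 muscles, with 1179 to 1319 in EAMG and 1019 to 1134 in control for EDL, and a gap of under 1 signal unit in EOM (1296.1 to 1344 in EAMG, 1271 to 1296 in control). It rose by 0.38 in DIA (SE 0.09, adjusted p = 0.0418) and by 0.22 over the 3 muscles (adjusted p = 0.0103, and 0.0366 without the low poly-A pair), and the DIA call was lost in 12 of the 18 fits without 1 array. Those were the fits without DIA EAMG 2 or 3, any DIA control, EDL control 1 or 2, EOM EAMG 1 or 3, or any EOM control (adjusted p of 0.0501 to 0.188).

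Dnajc30, a mitochondrial J-domain protein tied to ATP synthase, read 796, 922 and 901 in EDL EAMG, against 559.5, 453 and 708 in EDL control. These groups did not overlap, and the rise in EDL was 0.63 (SE 0.16, adjusted p = 0.0329). The call was lost without EDL EAMG 2 or 3 or EDL control 1 or 2 (adjusted p of 0.104 to 0.129). Dnajb12, a J-domain protein of the endoplasmic reticulum membrane that serves the breakdown of misfolded membrane proteins, read 673, 681 and 822 in EDL EAMG, against 458, 490.3 and 519 in EDL control. In DIA it read 381, 563 and 460.4 in EAMG, against 203, 369 and 327 in control. Both muscles were apart, yet neither passed (0.56, adjusted p = 0.103 in EDL and 0.67, adjusted p = 0.0831 in DIA). The means over the 3 muscles were 0.34 for Dnajc30 (adjusted p = 0.0200) and 0.43 for Dnajb12 (adjusted p = 0.0178), and without the low poly-A pair 0.32 (adjusted p = 0.0631) and 0.38 (adjusted p = 0.0576). A second probe set of Dnajb12 had a mean of 0.35 and was not called (adjusted p = 0.0669). Of the 4 other probe sets tested for members called in the mean, 4 had the same sign and 0 were called. The means of those of Hspb7 (0.09) and Hsph1 (-0.02) were far smaller than the called changes. Those of Dnaja1 (-0.17) and Dnajb12 (0.35) were nearer to them.

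**Figure D3:**
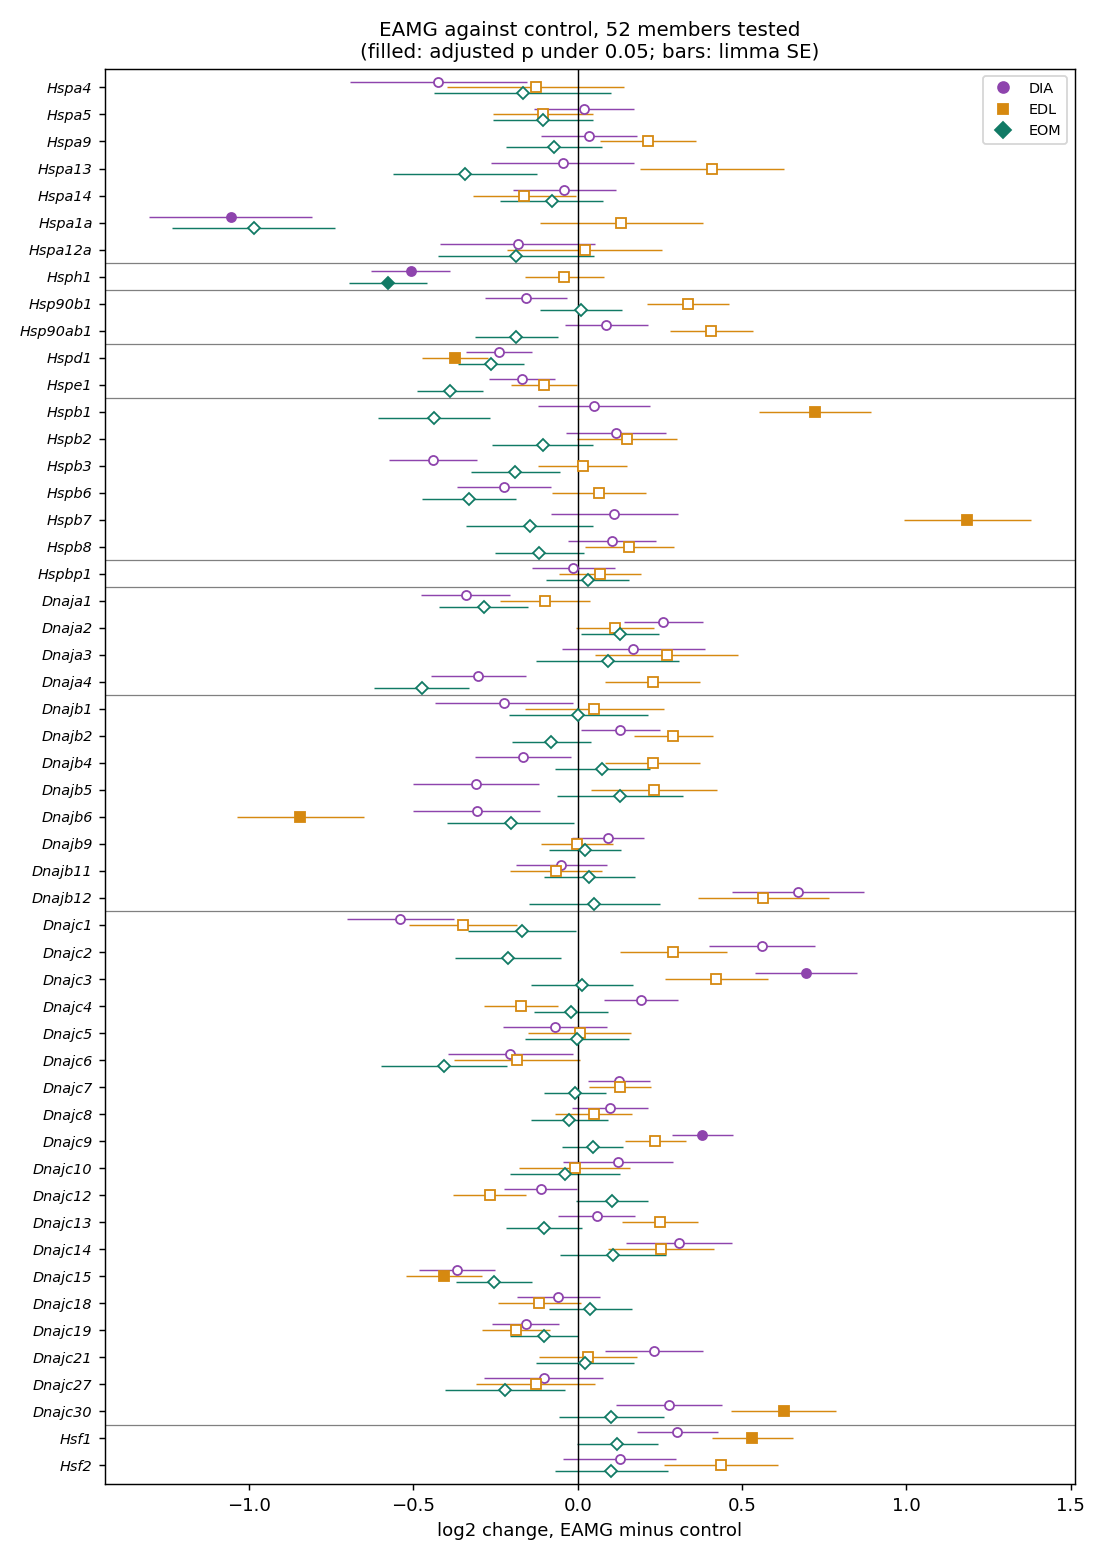
EAMG minus control change on the log2 scale for the 52 members tested, grouped by family, in DIA (circles), EDL (squares) and EOM (diamonds). Filled symbols passed limma at an adjusted p under 0.05 (4 in DIA, 7 in EDL and 1 in EOM) and bars are the limma SE.

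Of the 7 Hspa genes tested, Hspa1a alone was called in any EAMG comparison. Hspa5 (BiP), the Hsp70 of the endoplasmic reticulum and the Hspa gene of highest signal, changed by 0.02 in DIA and -0.10 in both EDL and EOM, and mitochondrial Hspa9 (mortalin) by 0.03, 0.21 and -0.07 in DIA, EDL and EOM. Neither Hsp90 gene was called: in EDL, cytosolic Hsp90ab1 read 18419.5, 19091 and 24858 in EAMG, against 14982, 15141 and 16562 in control (0.41, adjusted p = 0.0663), and Hsp90b1 of the endoplasmic reticulum differed by 0.34 (adjusted p = 0.118). Both were above control on all EDL arrays. Dnajb4, the cytosolic Dnajb gene of highest signal, changed by -0.17, 0.23 and 0.07 in DIA, EDL and EOM, and Dnajc19, a J-domain protein of the mitochondrial import motor and the Dnajc gene of highest signal, by -0.16, -0.19 and -0.10, none of them called. Of the 19 Dnajc genes tested, 5 were called in the mean over the 3 muscles (Dnajc3, Dnajc9 and Dnajc30 higher, Dnajc1 and Dnajc15 lower). Of the 8 Dnajb genes 2 were called (Dnajb12 higher, Dnajb6 lower) and of the 4 Dnaja genes 1 (Dnaja1 lower), beside 20.4% of all probe sets tested. The probe sets of Dnajc5 disagreed in that mean. The one that represents the gene read -0.02 and was not called, and a second was called higher (0.39, adjusted p = 0.00284).

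No member passed a test of whether its EAMG change differed between muscles, in any of the 3 pairings, where 0.0163% (EDL against DIA), 0.0163% (EOM against DIA) and 0.106% (EOM against EDL, 0.0654% higher and 0.0409% lower) of all probe sets passed. At an unadjusted p under 0.05 the counts of members were 8, 4 and 14 of 52, or 15.4%, 7.69% and 26.9%, beside 5.31%, 6.50% and 10.1% of all probe sets. The differences nearest to the threshold were those of Hspb7 (-1.33, SE 0.27) and Hspb1 (-1.16, SE 0.24) in EOM against EDL, both at an adjusted p of 0.0778 (0.148 for Hspb7 and 0.131 for Hspb1 without the low poly-A pair). Hspa1a differed by 1.19 in EDL against DIA (adjusted p = 0.823) and by -1.12 in EOM against EDL (adjusted p = 0.273). So the falls of Hspa1a and Hsph1 in DIA and EOM, and the rises of Hspb7 and Hspb1 in EDL, were not shown to be particular to those muscles.

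**Figure D4:**
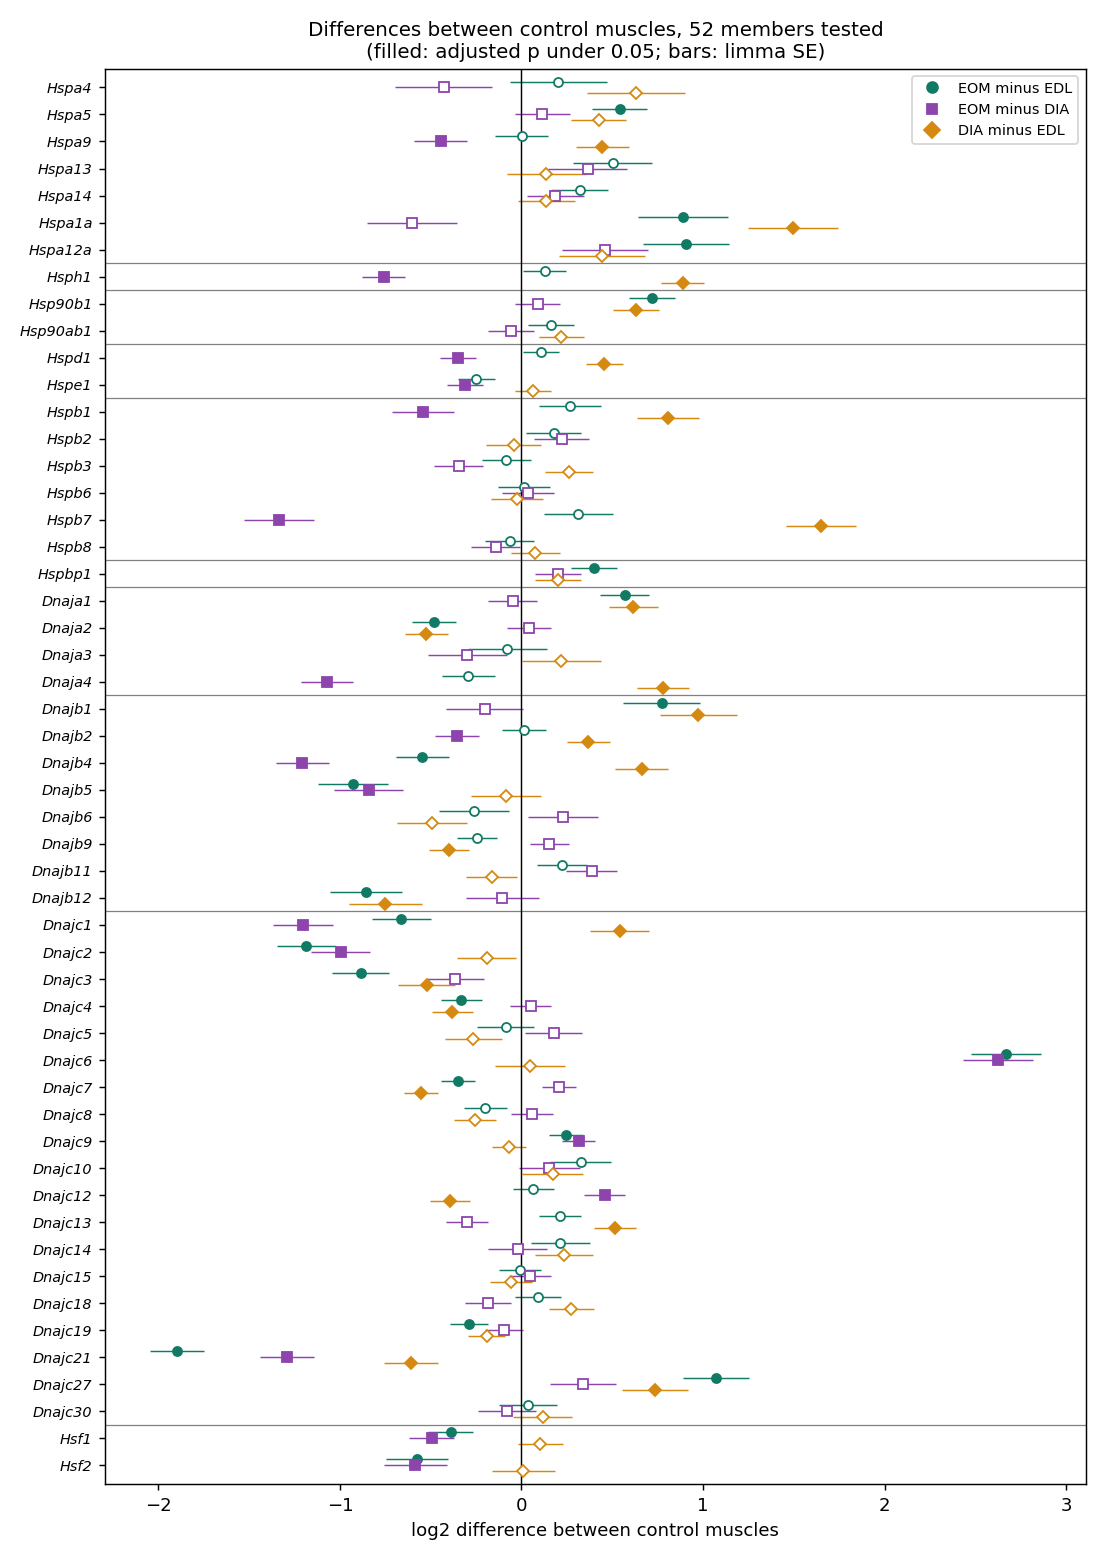
Differences between control muscles on the log2 scale for the 52 members tested: EOM minus EDL (circles), EOM minus DIA (squares) and DIA minus EDL (diamonds). Filled symbols passed limma at an adjusted p under 0.05 (23, 18 and 23 members) and bars are the limma SE; Dnajc6 and Hspa12a, filled in an EOM contrast, reached the signal minimum in EOM alone.

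More members differed between control muscles than between EAMG and control in a single muscle. The same held for all probe sets tested, of which 2.68%, 6.59% and 1.50% passed in EAMG against control in DIA, EDL and EOM. In control rats 23 members were called in EOM against EDL (10 higher and 13 lower, 44.2% of members, beside 41.4% of all probe sets), 18 in EOM against DIA (3 higher and 15 lower, 34.6%, beside 21.3%) and 23 in DIA against EDL (15 higher and 8 lower, 44.2%, beside 24.8%). Of these members Dnajc6 and Hspa12a reached the signal minimum in EOM alone and so were tested through the muscle in which they were high; without the 3 members of that kind (Hspa14 the other) the counts were 21, 17 and 23 of 49. Non-overlapping arrays were seen for 16 members above and 17 below in EOM against EDL (31.2% and 26.0% of all probe sets), 6 and 21 in EOM against DIA (22.7% and 21.6%) and 20 and 12 in DIA against EDL (22.8% and 19.3%). These 3 comparisons share control groups with each other and with the EAMG comparisons, so their values are set side by side only. Higher in DIA controls than in EDL controls were Hspb7 by 1.65 (adjusted p = 3.12e-05), Hspa1a by 1.50 (adjusted p = 0.000643), Dnajb1, the Hsp40 partner of Hsp70, by 0.97 (adjusted p = 0.00401) and Hsph1 by 0.89 (adjusted p = 0.00011). DIA controls were lower than EDL controls in Dnajb12 (-0.75), Dnajc21 (-0.61), Dnajc7 (-0.55) and Dnaja2 (-0.52).

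Dnajc6 (auxilin), the J-domain protein that uncoats clathrin vesicles, was at 662, 595 and 659 in EOM control, against 119, 73.1 and 116 in EDL control and 96.7, 105 and 109 in DIA control. The EOM arrays stood far above the others, and since the other muscles were under the minimum of 400 this is given as signals, with no test. EOM EAMG arrays read 525, 395 and 537, below all EOM controls, a change of -0.41 that was not called (adjusted p = 0.382). Dnajc21, which works in the assembly of the large ribosomal subunit, ran the other way, at 431, 448 and 519 in EOM control, against 1871, 1736 and 1599.6 in EDL control (-1.90, adjusted p = 2.42e-07) and 1049, 1206 and 1160.1 in DIA control (-1.29, adjusted p = 1.59e-05). Dnajc2, a J-domain protein of the ribosome, was also lower in EOM than in EDL (-1.19, adjusted p = 4.15e-05). Dnajb5 (-0.93, adjusted p = 0.00127) and Dnajc3 (-0.89, adjusted p = 0.000361) were lower in EOM than in EDL as well, and Dnajc27 (1.07) and Hspa1a (0.89) higher. Against DIA, EOM controls were lower in Hspb7 (-1.34), Dnajb4 (-1.21) and Dnajc1 (-1.20), and Dnajc12 (0.46) and Dnajc9 (0.32) were called higher. Hsf1 and Hsf2 were both lower in EOM than in EDL and in DIA, Hsf1 by 0.39 (adjusted p = 0.0197) from EDL and 0.49 (adjusted p = 0.00925) from DIA.

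Genes outside the rule that work with these chaperones were counted from lists. The list of Hsp70 co-chaperones also held Hspbp1, which is itself a member of the set and was not called in the mean. Of 12 Hsp70 co-chaperones tested, 4 rose over the 3 muscles and none fell, beside 10.5% of all probe sets higher and 9.93% lower, led by Bag6 at 0.44 (adjusted p = 0.000851), Bag3 at 0.32 (adjusted p = 0.0206) and Bag2 at 0.32 (adjusted p = 0.0199). Of the 4, Bag6 alone was called without the low poly-A pair (0.42, adjusted p = 0.00401), and Bag3 (0.26, adjusted p = 0.0647), Bag2 (0.29, adjusted p = 0.0692) and Stub1 (0.22, adjusted p = 0.0945) were not. Bag6 and Bag3 help to pass clients of Hsp70 to degradation. Of 15 Hsp90 co-chaperones tested, Fkbp5, which acts on steroid receptors, was called in every muscle. Its signal was 1281, 2086 and 1288 in DIA EAMG, against 435, 438 and 341 in DIA control, and in EDL 1869, 1839 and 1630.5 in EAMG, against 369, 434 and 394 in control. EOM arrays read 1423, 1063 and 886 in EAMG, against 232, 243 and 279 in control. The rises were 1.91, 2.16 and 2.14 in DIA, EDL and EOM (adjusted p = 0.000387, 7.55e-05 and 0.000171), with no overlap in any muscle, while Chordc1 fell in the mean (-0.39, adjusted p = 0.00311). Both genes kept these calls without the low poly-A pair.

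Filamin C (Flnc), a Z-disc protein that Hspb7 binds, rose by 0.76 in EDL (adjusted p = 0.00638), where Hspb7 rose, and by 0.43 in the mean (adjusted p = 0.00181), the only call among 9 small heat shock relatives and clients tested. It read 9136, 11944 and 11528 in EDL EAMG, against 5761, 6835 and 6630.2 in EDL control. Of 12 chaperonin and prefoldin subunits tested, Cct4 (0.49, adjusted p = 0.0248) and Pfdn5 (0.41, adjusted p = 0.0302) rose in EDL, beside 3.37% of all probe sets higher there. Among 17 genes of folding and stress in the endoplasmic reticulum none was called in a single muscle, and in the mean Herpud1 (0.65, adjusted p = 0.0045) and Xbp1 (0.23, adjusted p = 0.0346) rose and Pdia6 fell (-0.28, adjusted p = 0.0047), 3 of 17 beside 20.4% of all probe sets. The mean of Xbp1 was not called without the low poly-A pair (0.18, adjusted p = 0.0798), while those of Flnc, Herpud1 and Pdia6 were. None of 8 genes of the mitochondrial unfolded protein response was called in any muscle or in the mean.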

How the data were processed

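Each of the 18 arrays was hybridized with pooled RNA. The deposited intensity values are linear signals that the authors made with Affymetrix GCOS 2.0, as the submitters' notes give, with each array scaled to a common target. The control probe sets were set aside, and of the other 31042 probe sets the 12238 with a signal of 400 or more on any array were tested, since the methods set that minimum. Log2 signals were fitted with limma 3.58.1 (R 4.3.3), with 1 mean for each of 6 groups (12 residual degrees of freedom), 10 contrasts and Benjamini-Hochberg adjustment over all tested probe sets. The fit was tested on simulated data. Figures were drawn with matplotlib 3.10.9 (Python 3.11.15). Per-array values are given for members called in any EAMG comparison, for the 3 largest changes where fewer than 3 passed, and for the member of highest signal in each family, whose values appear as changes or signals. From control muscles the 4 largest called differences a direction are named, with Hsf1 and Hsf2 besides, and Hspa12a is named without its difference. From each list up to 3 called genes are named, with Stub1 besides. The members and lists were chosen with earlier results of these data known. Alternatives covered the minimum, quantile normalization, 100 added to each signal, separate fits, replicate numbers as blocks, omitted arrays, the low poly-A pair and every probe set of a member. The list genes without that pair, and the counts without members at the minimum in 1 muscle alone, were chosen after seeing the data. Nothing in the labels ties a replicate number to shared animals.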

Additional observations from a re-analysis of the deposited data

Results flagged for a closer look

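For 4 members every EAMG array lay on one side of control in 1 muscle and on the opposite side in another, and the difference between the changes was tested with limma. Hspb7 lay above control in EDL and below it in EOM, with a difference of -1.3315 for EOM against EDL (SE 0.27, adjusted p = 0.0778). Hspb1 did the same, at -1.1571 (SE 0.24, adjusted p = 0.0778). Over the 18 fits without 1 array the adjusted p ran from 0.0190 to 0.209 for Hspb7 and from 0.0211 to 0.219 for Hspb1. Both passed without EDL EAMG 1, and both passed with 100 added to each signal. Dnaja4 lay below control in DIA and EOM and above it in EDL, with differences of 0.5303 for EDL against DIA (adjusted p = 0.876) and -0.7029 for EOM against EDL (adjusted p = 0.241). Dnajc4, a J-domain gene, lay above control in DIA, at 1233, 1203 and 1314 in EAMG and 1051, 1136 and 1094 in control. In EDL it lay below, at 1311, 1328 and 1156 in EAMG and 1382, 1379 and 1511 in control, a difference of -0.3648 for EDL against DIA (adjusted p = 0.904). None of these differences passed in the fit of all arrays.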

How the results depend on the processing

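No called member changed sign under any alternative, but the number of calls moved. Without a signal minimum the calls were 0 in DIA, 1 in EDL, 0 in EOM and 6 in the mean of 3 muscles, beside 36, 158, 39 and 1267 of all 31042 probe sets, and in control rats 10 in EOM against DIA and 15 in DIA against EDL. With the groups of a comparison fitted alone there were 0 in DIA and 0 in EDL, beside 14 and 3 of all 12238 probe sets, and a mean over the muscles could not be fitted that way. Without the low poly-A pair there were 0 in DIA and 8 in the mean, beside 51 and 1636 of all 12238. Quantile normalization gave 2 in EOM, and 100 added to each signal gave 2 in EOM and 2 in the change of EOM against EDL. Leaving out 1 array at a time gave 0 to 8 in DIA, 1 to 9 in EDL, 0 to 2 in EOM, 13 to 14 in the mean and 0 to 2 in the change of EOM against EDL. In control rats it gave 19 to 24 in EOM against EDL, 11 to 19 in EOM against DIA and 16 to 24 in DIA against EDL. The cause was not tested. Same-numbered EAMG and control arrays deviated together at r over 0.1 in 7 of 9 pairs (-0.03 to 0.34), and 7 of 9 EAMG arrays were closest to the control array of their own number, a hint from the data. The methods say that the experiment was repeated to give the replicates, but the labels do not say what a number marks, so the numbers were not taken as pairs. With the replicate block the calls were 5 in DIA, 7 in EDL, 2 in EOM and 17 in the mean, beside 457, 1050.0, 228 and 2805 of all 12238 probe sets. No call was lost, and those gained were Hspb3 in DIA, Hspe1 in EOM and Dnajc14, Dnajc19 and Hspb3 in the mean. The number of arrays limits the precision of every value.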
